A study of Mus musculus with 8 samples.

Results

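miR-29a was compared with a negative control oligonucleotide (NC) in the livers of male mice whose fibrosis had been induced with carbon tetrachloride (CCl4), a solvent that injures hepatocytes. The members were 4 arrays of the 8 in the study, those whose labels name CCl4. They were 1 NC array and 1 miR-29a array after 1 week of observation, and 1 of each after 2 weeks. CCl4 induction had lasted 5 weeks in all 4 groups, and the assigned oligonucleotide was injected every 3 days during the observation period. The other 4 arrays came from the same scheme with thioacetamide (TAA), another hepatotoxin, in place of CCl4, and are used here only beside the CCl4 values. The labels do not say whether an array held the RNA of 1 mouse or of a pool, and they give no strain, age or time of day at collection. They also do not say which strand of miR-29a was injected.

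Each value is a log2 signal relative to the 75th percentile of its own array, so a difference of 1 between miR-29a and NC is 2-fold. With a probe required to stand well above background on 2 or more of the 4 arrays, and the brightest probe taken for each gene name, 19069 genes could be compared of 34836 gene names on the array, and 17356 of them were well above background on all 4. Between 45.4% and 48.4% of spots were well above background on the 4 arrays, none was saturated, and all were on 1 slide. Repeated spots of 1 probe had a median SD of 0.0622 to 0.0674 log2 units within an array, which is the error of the array alone. That was taken over 248 to 256 probes per array with 5 or more spots, all well above background, so it does not cover dim probes. With 1 array per week and oligonucleotide there is no replicate, so the spread between animals is unknown. Of 38 hepatocyte genes listed, such as albumin, 37 were measured, and all 37 were well above background on every one of the 4 arrays.

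MicroRNAs of the miR-29 family bind messenger RNAs through their seed, bases 2 to 8 from the 5′ end, and lower the stability or translation of those messengers. Collagens, elastin, fibrillin and other genes of the extracellular matrix are among the best known targets, and loss of miR-29 in hepatic stellate cells accompanies liver fibrosis. The family's mature strands are shown because the comparison is of an oligonucleotide of this name, with the seed in capitals (RefSeq, GRCm38.p6):
mmu-miR-29a-3p: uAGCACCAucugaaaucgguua
mmu-miR-29b-3p: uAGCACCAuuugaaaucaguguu
mmu-miR-29c-3p: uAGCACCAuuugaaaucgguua
The first lies on the minus strand at chr6:31062673-31062694, and miR-29c-3p on the plus strand at chr1:195037600-195037621. The seed AGCACCA was shared by these 3 of 1679 mature mouse names in the table. Counted from the 5′ end of miR-29a-3p, miR-29c-3p differed by C10U, and miR-29b-3p by C10U, G18A, U21G and A22U. No probe of the array was named for miR-29a itself, so its delivery was not measured.

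Genes that differed between miR-29a and NC were mostly not the same genes in the 2 weeks. At 1 week 273 genes were more than 2-fold higher with miR-29a (1.43% of the 19069) and 414 were lower (2.17%), and at 2 weeks 252 were higher (1.32%) and 260 lower (1.36%). Both weeks agreed past 2-fold in 72 genes, of which 30 were higher (0.157% of all genes) and 42 lower (0.22%). A further 401 genes passed 2-fold at 1 week alone, with under 1.5-fold at 2 weeks, and 262 passed it at 2 weeks alone. In 117 genes the other week fell between those limits in the same direction, and 190 genes went past 2-fold one way in one week and at least 1.5-fold the other way in the other. Across the 19069 genes, which are not independent replicates, 51% had the same sign in both weeks, with Pearson's r of 0.0135 and Spearman's rho of 0.0415 between the weeks. The counts depend on where the limit is drawn, since 147 genes lay within 0.05 log2 units of it at 1 week and 112 at 2 weeks.

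A limma fit over the 4 arrays with week as a block, which has 1 residual degree of freedom, called 0 genes at an adjusted p under 0.05 (0% of 19069). The smallest adjusted p from limma was 0.423, and 1087 genes (5.7%) had an unadjusted p under 0.05, 470 of them higher and 617 lower (3.24% of all genes). No gene below therefore passed this test, and the values describe these 4 arrays. With normexp background correction of the raw spot signals, which draws dim values together, the same limma fit called 4 genes: Arntl (adjusted p 0.0175), and Usp2, Erdr1 and the unnamed transcript TC1700876 (adjusted p 0.0296 each). That setting also left only 7 genes higher and 6 lower in both weeks. Of the 72 genes that agreed in both weeks, 17 were well above background on all 4 arrays, 9 higher and 8 lower. A further 30 were detected on both NC arrays only and 13 on both miR-29a arrays only, and for such genes the fold is a lower bound. It was set against the lowest signal among detected probes of the array on which the gene was not well above background, or against the gene's own signal where that was higher. Those lowest signals were −3.56 and −3.45 at 1 week and −4.45 and −3.53 at 2 weeks, NC first. Bounds against the 2-week NC array thus use a lower floor and come out larger. Genes detected with 1 oligonucleotide only passed the filter through those arrays, so the filter itself fixed their direction. This holds for Per3, Ephb1 and Loxl4, and for Cry1 and Fos outside the 72.

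**Figure D1:**
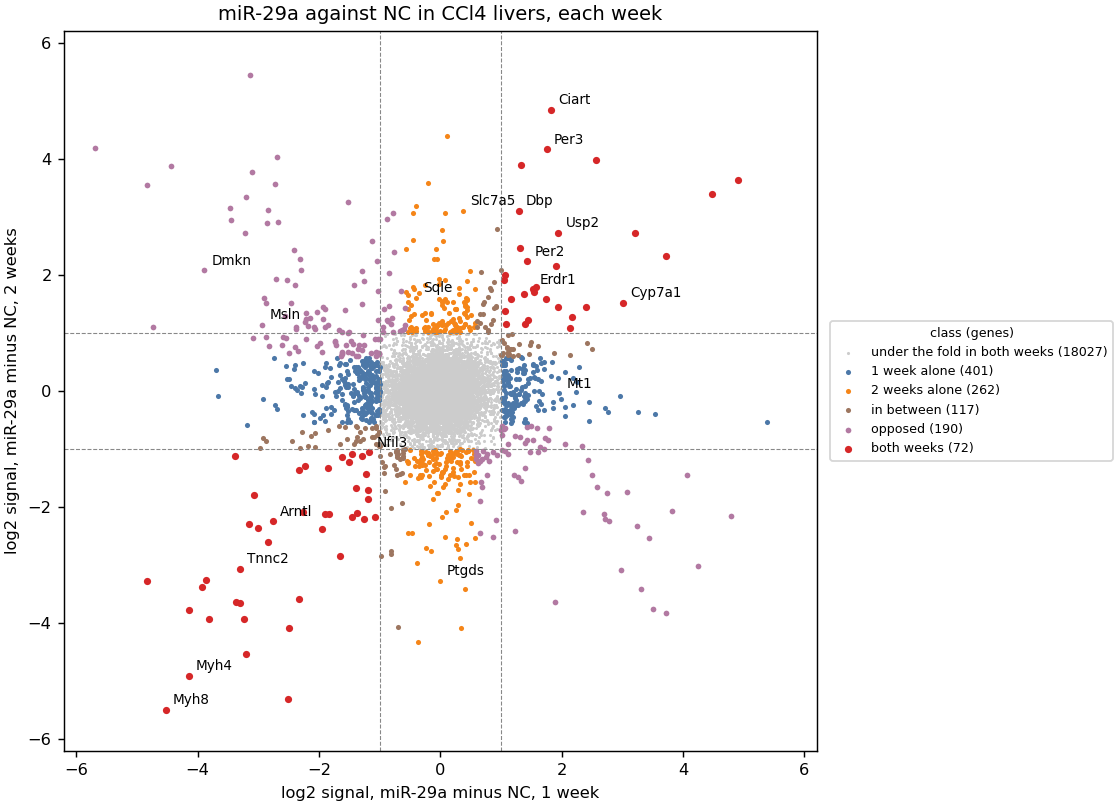
Difference between miR-29a and NC (log2) at 1 week on the horizontal axis and at 2 weeks on the vertical axis, 1 point per gene, coloured by class, with dashed lines at the 2-fold limits. The 30 genes higher and 42 lower in both weeks occupy opposite corners, and most genes past 2-fold in one week lie near 0 in the other.

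Of the genes that agreed in both weeks, 6 of the 30 higher ones and 2 of the 42 lower ones were on 2 lists of circadian clock genes. These lists held 17 and 8 of the 19069 genes compared. Over all genes 0.157% were higher and 0.22% lower in both weeks. Both lists were written with earlier results of these data known, so these counts are not an independent test. In liver the clock runs through the activators BMAL1 (gene Arntl) and CLOCK, which bind E-boxes and drive their own repressors of the period and cryptochrome families. The factors DBP, TEF and HLF carry the rhythm to output genes through D-boxes, where NFIL3 acts against them. All 17 measured members of an 18-gene list of repressors and outputs that peak near dusk were higher with miR-29a in both weeks, with a median of 0.47 at 1 week and 1.28 at 2 weeks, against 0.02 and 0 over all genes. More than 2-fold was reached by 6 of the 17 at 1 week, by 10 at 2 weeks and by 6 in both. With normexp background correction Usp2, Ciart and Dbp stayed past 2-fold in both weeks, and Per2, Per3 and Wee1 did not. In the list of activators and genes peaking near dawn, 8 of 10 were measured. In both weeks 6 of the 8 were lower (75%, against 23.6% of all genes), with medians of −0.45 and −0.48. The 1-week miR-29a array was the one farthest from the median of the other 3 for 5 of these 8, against 29.5% of all genes. The time of day at which these livers were taken is not in the labels, and its part in these values was not tested.

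Arntl had the largest clock difference downward, and its NC levels were above both miR-29a levels. Its signal was 0.83 with NC and −1.92 with miR-29a at 1 week, and 2.01 and −0.23 at 2 weeks (probe at chr7:120457261-120457320, mm9). That is 6.77-fold lower at 1 week and 4.73-fold lower at 2 weeks, with a mean difference of −2.5 (limma SE 0.18, adjusted p 0.607). Nfil3, the D-box repressor, had levels of 3.83 and 2.66 at 1 week and 4.36 and 3.3 at 2 weeks, NC first. In Nfil3, too, both NC levels lay above both miR-29a levels. Clock itself differed by −0.59 and −0.27, under 2-fold in each week. Cry1, a repressor whose messenger peaks late in the night, was not well above background on either miR-29a array and was at least 2.71-fold lower at 2 weeks.

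Usp2, a deubiquitinase gene with a strong daily rhythm in liver, had levels of 1.34 with NC and 3.28 with miR-29a at 1 week, and −0.68 and 2.04 at 2 weeks. The probe at chr9:43903649-43903708 (mm9) was thus 3.82-fold and 6.62-fold higher. The 2-week NC level was the lowest of the 4 and the 1-week miR-29a level the highest. Dbp had levels of 5.59 and 6.88 at 1 week and 3.03 and 6.15 at 2 weeks, which gives 2.44-fold and 8.66-fold higher. Another probe of Dbp gave differences of 1.29 and 3.29. Per2 levels were −2.40 and −0.97 at 1 week and −3.69 and −1.45 at 2 weeks, and both miR-29a levels were above both NC levels. Wee1, a kinase that restrains entry into mitosis and follows the liver clock, had levels of −0.66 and 1.5 at 1 week and −1.56 and −0.27 at 2 weeks.

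Ciart and Per3 were higher in both weeks as well, but dim. Ciart, a repressor of the activator pair, had levels of −1.99 and −0.16 at 1 week and was not well above background in the 2-week NC array. Against that array's lowest detected signal of −4.45 it was at least 11.3-fold higher there. That floor was lower than on the other CCl4 arrays (−3.56 to −3.45), and with a higher floor the bound would be smaller. Per3 was not well above background on either NC array, and was at least 3.35-fold higher at 1 week and, against the same low floor, at least 8.46-fold higher at 2 weeks. Per1 and Bhlhe40 differed at 2 weeks alone, by 1.54 and 1.53 against 0.39 and 0.02 at 1 week. The core repressors Nr1d1 (0.19 and 0.32), Nr1d2 (0.06 and 0.42) and Cry2 (0.34 and 0.3) were under 2-fold in each week. Other probes gave 0.19 and 0.63 for Nr1d2 and 0.16 and 0.91 for Cry2. For 12 of the 17 dusk genes the 2-week NC array was the one farthest from the median of the other 3 arrays, against 20.8% of all genes. On the TAA arrays the medians of the same 17 genes were 0.61 at 1 week and 0.68 at 2 weeks, against 0.13 and −0.02 over all genes. Those of the 8 dawn genes were 0.26 and −0.27, opposite to CCl4 at 1 week. With normexp background correction the 2-week CCl4 median of the dusk genes was 0.78.

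**Figure D2:**
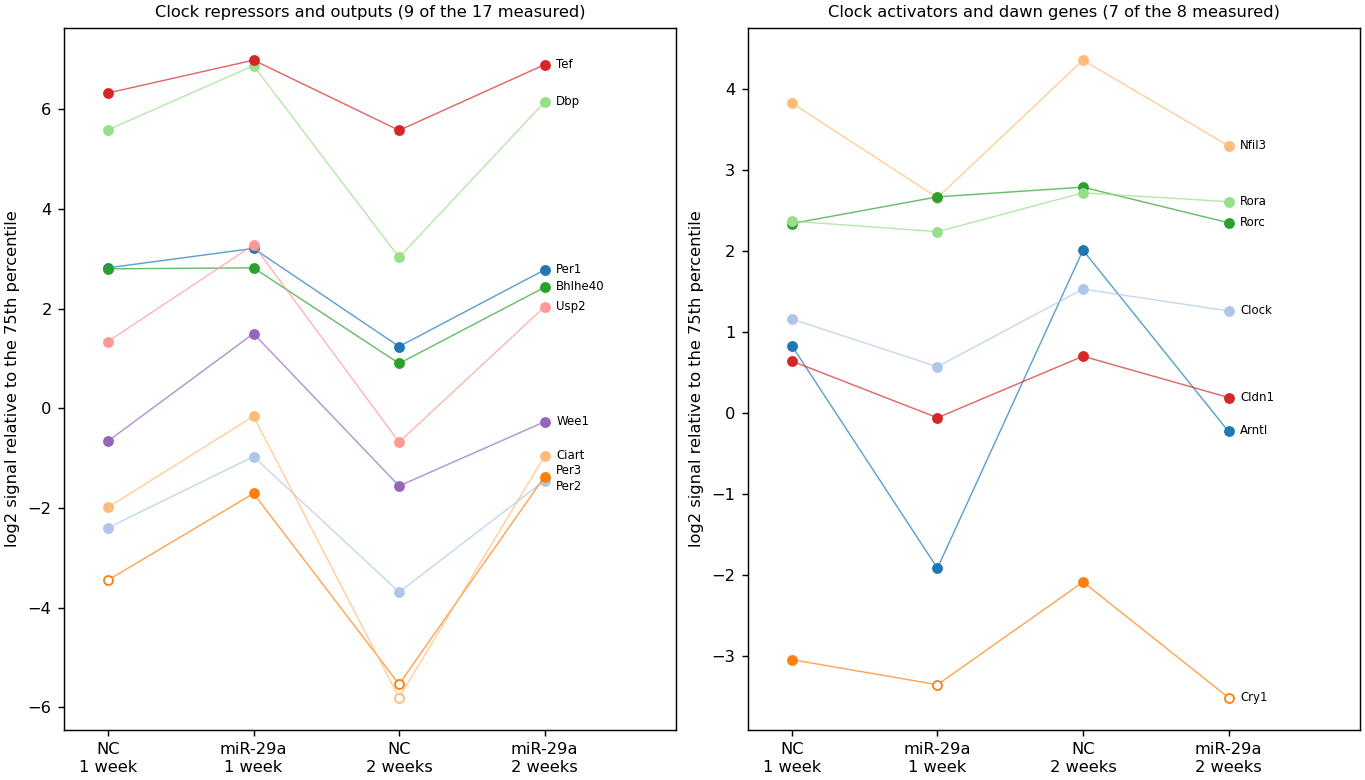
Log2 signal relative to the array's 75th percentile (vertical axis) on each of the 4 CCl4 arrays (horizontal axis), for 9 of the 17 dusk genes on the left and 7 of the 8 dawn genes on the right. Lines join the arrays of 1 gene, and open circles mark values not well above background. Arntl and Nfil3 are lower with miR-29a in both weeks and Usp2, Dbp and Per2 higher, and the 2-week NC array holds the lowest levels of Dbp, Usp2 and Per2.

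Promoter letters are shown for 3 of the dusk genes that were past 2-fold higher at 2 weeks, with E-boxes (CACGTG) and D-boxes (TTATGNAA) in capitals. At 1 week Ciart and Per3 passed 2-fold as well, and Per1 did not (0.39). The windows lie upstream of the RefSeq start sites in GRCm38.p6, Ciart at chr3:95882252-95882359 on the minus strand, Per3 at chr4:151044801-151044885 on the minus strand and Per1 at chr11:69098768-69098947 on the plus strand:
Ciart: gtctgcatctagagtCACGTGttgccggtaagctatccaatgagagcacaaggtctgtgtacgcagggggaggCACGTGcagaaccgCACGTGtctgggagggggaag
Per3: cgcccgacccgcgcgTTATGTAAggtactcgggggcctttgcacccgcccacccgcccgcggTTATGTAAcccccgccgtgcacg
Per1: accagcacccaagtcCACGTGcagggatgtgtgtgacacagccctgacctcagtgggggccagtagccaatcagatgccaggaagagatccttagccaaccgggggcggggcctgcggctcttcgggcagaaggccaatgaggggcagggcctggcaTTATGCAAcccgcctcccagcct
Ciart held 3 E-boxes, Per3 held 2 D-boxes, and Per1 held 1 of each. Searched on both strands over the 250 bases before the start, an E-box was present in 5 of the 14 dusk genes found in the table (35.7%), in 1 of 6 dawn genes and in 6.86% of 27025 genes. A D-box was present in 3 of the 14 (21.4%), in 0 of 6 dawn genes and in 3.63% of all genes. The E-box reads the same on both strands, the letters of the 2 motifs cannot overlap, and a match is a description of the sequence only.

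Cyp7a1, the rate-limiting enzyme of the classic route from cholesterol to bile acids, was higher with miR-29a in both weeks. Its level was 0.74 with NC and 3.76 with miR-29a at 1 week, and 1.00 and 2.52 at 2 weeks (probe at chr4:6193456-6193515, mm9). That is 8.08-fold and 2.88-fold higher, with a mean difference of 2.27 (limma SE 0.43, adjusted p 0.848), and both miR-29a levels were above both NC levels. On the TAA arrays the difference ran the other way, at −1.87 and −1.68. The test of the difference between the agents gave 4.04 (limma SE 0.54, adjusted p 0.867) and did not pass. Among 29 measured genes of bile acid synthesis, transport and the bile acid receptor, the medians were −0.03 and −0.01. Nr0b2, the receptor's target that represses Cyp7a1, differed by −1.07 at 1 week and −0.17 at 2 weeks. Slc51b, a subunit of the bile acid exporter, had levels of −1.99 and −3.22 at 1 week and −3.26 and −4.69 at 2 weeks, the last not well above background. Its 2-week bound was at least 1.21-fold lower, so its place among the genes of both weeks rests on a dim value. Cyp7b1 (0.25 and 0.99) and Cyp8b1 (0.41 and 0.18) stayed under 2-fold.

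Some single genes of fuel metabolism passed 2-fold in both weeks, in either direction. Pdk4, the kinase that blocks pyruvate entry into the citric acid cycle during fasting, had levels of 1.82 and 0.37 at 1 week and 3.13 and 0.96 at 2 weeks, NC first. It was 2.73-fold and 4.5-fold lower (mean −1.81, limma SE 0.23, adjusted p 0.848). Igfbp1, an insulin-repressed carrier of insulin-like growth factors, had levels of 6.41 and 5.22 at 1 week and 6.64 and 4.78 at 2 weeks. In both genes each NC level was above each miR-29a level. Ppp1r3g, which targets a phosphatase to glycogen, was 2.85-fold and 2.34-fold lower. Aacs, which activates ketone bodies for lipid synthesis, was 2.09-fold and 2.6-fold higher. Over 23 measured genes of fasting and gluconeogenesis the medians were only −0.3 and −0.08. At 1 week 17 of the 23 were lower (73.9%, against 46.4% of all genes), and at 2 weeks 14 (60.9%, against 49.7%). G6pc, the last step of glucose release, was lower at 1 week alone (6.76 and 4.68, against 6.43 and 5.89 at 2 weeks), as was Pck1 (8.91 and 7.64, against 8.13 and 8.19).

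Among the remaining genes on all 4 arrays, Asap2, which acts on ARF GTPases, was 2.28-fold and 3.27-fold lower, and Abtb2 was 3.09-fold and 2.2-fold lower. Pcsk4, a proprotein convertase, was 3.85-fold and 2.71-fold higher, and Erdr1 was 2.88-fold and 3.37-fold higher. Dhrs9, a retinol dehydrogenase, was 2.45-fold lower at 2 weeks and at least 3.93-fold lower at 1 week, where it was not well above background with miR-29a. Cyp26b1, which breaks down retinoic acid, was lower by 0.82 at 1 week and 7.03-fold lower at 2 weeks, so it was not a gene of both weeks past 2-fold. Ephb1, a receptor tyrosine kinase, was not well above background on either miR-29a array and was at least 3.3-fold and at least 2.5-fold lower. Loxl4, a collagen cross-linking oxidase, was at least 1.37-fold and at least 3.33-fold lower by the same measure.

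Of 20 striated muscle genes listed, 10 were measured, and 5 of the 10 were lower past 2-fold with miR-29a in both weeks. Tnni2, the fast-twitch troponin I, was the one of these that was well above background throughout, with levels of −0.77 and −2.73 at 1 week and −0.06 and −2.44 at 2 weeks. It was 3.88-fold and 5.2-fold lower. The other 4 were not well above background on either miR-29a array and passed the filter only through the NC arrays, so the filter itself fixed their direction. Among them the myosin Myh4 was at least 3.81-fold and 6.9-fold lower, and the troponin Tnnc2 at least 4.77-fold and 8.33-fold lower. Myh8, a perinatal myosin outside the list, was at least 5.4-fold and 10.9-fold lower by its brightest probe, but another probe of Myh8 gave 0.06 and −0.98. The measured members Pvalb (−0.11 and −0.22), Tnnt1 (−0.14 and 0.87) and Myh6 (0.25 and 0.4) were under 2-fold. Medians of the list were −0.14 and −0.22 over members well above background on all 4 arrays and −0.12 and −0.35 with no filter, and the −1.18 and −1.62 of the 10 measured members therefore rest on the filter. Summed linear signal of the 10 was 4.72 and 3.07 at 1 week and 5.38 and 3.58 at 2 weeks, in units of each array's 75th percentile. On the TAA arrays the medians of the 10 were 0.98 and −0.14. Whether the pieces of tissue differed in attached muscle was not tested.

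The TAA arrays, which the choice of these 72 genes did not use, gave the same direction for part of them. Of the 30 genes higher in both CCl4 weeks, 19 (63.3%) were also higher in both TAA weeks, against 37.1% of the 5237 genes higher in both CCl4 weeks at any size. Of the 42 lower genes, 9 (21.4%) were lower in both TAA weeks, against 24.3% of 4493. The filter did not require signal above background on the TAA arrays. The lower genes Gm10457, Olfr1463 and Mageb16-ps1 each had TAA differences of 0.17 and −0.26, the same as the unrelated genes Hsf3 and Lypd5. Tex16, a higher gene, had 0.17 and −0.24. Genes with such values could not share a direction in both TAA weeks, so these shares do not test agreement. Among the 17 genes on all 4 arrays the shares were 8 of 9 higher genes and 2 of 8 lower ones. Arntl was one of those 2, with TAA differences of −0.62 and −1.41, and Asap2 the other, with −0.88 and −0.69. Usp2 differed by 0.99 and 2.57 with TAA. A fit over all 8 arrays tested the CCl4 difference against the TAA difference and called 0 of 19069 genes at an adjusted p under 0.05 (0%), with 772 at an unadjusted p under 0.05, so none of these differences can be called particular to CCl4.

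At 1 week alone the lower genes included those of the mesothelium, the cell layer that covers the liver, and of the collagen matrix. Of 30 mesothelial markers 22 were measured. At 1 week 21 of the 22 were lower with miR-29a (95.5%, against 46.4% of all genes), with a median of −2.06. More than 2-fold was reached by 17, against 2.17% of all genes. At 2 weeks 19 were higher (86.4%, against 50.3%), with a median of 0.55, and 10 passed 2-fold, against 1.32%. Msln (mesothelin) had levels of 3.28 and 0.34 at 1 week and −0.34 and 0.8 at 2 weeks, NC first. Wt1, a transcription factor of this layer, had levels of 0.81 and −1.28 at 1 week and −1.43 and −1.08 at 2 weeks. The 1-week NC array stood above the other 3 for both genes, and it was the array farthest from the other 3 for 18 of the 22 markers, against 23.7% of all genes. Upk3b, Krt19 and Gpc3 were lower by 2.74, 2.26 and 2.39 at 1 week and differed by 0.57, 0.48 and 0.44 at 2 weeks. Summed linear signal of the 22, in units of each array's 75th percentile, was 2280 and 2230 at 1 week and 2270 and 2150 at 2 weeks. The median level of the markers was 1.04 and −0.92 at 1 week and −1.43 and −0.76 at 2 weeks. Members that hepatocytes also express, such as C3 (0.08 and −0.13) and Rarres2 (−0.13 and −0.14), hardly differed. On the TAA arrays the medians of the 22 were −0.33 and 0.54, against 0.13 and −0.02 over all genes. With normexp background correction the CCl4 medians were −1.22 and 0.32. In whole liver, fewer cells of a type and less of a messenger per cell cannot be told apart.

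Collagens were also lower with miR-29a at 1 week. All 7 measured of 11 fibrillar collagens were lower at 1 week (against 46.4% of all genes), 2 past 2-fold (against 2.17%). The median was −0.76 at 1 week and −0.02 at 2 weeks. Col1a1 had levels of 2.8 with NC and 1.41 with miR-29a at 1 week, and 0.8 and 0.78 at 2 weeks, so the 1-week NC array stood apart. Col3a1 levels were 3.96 and 3.2 at 1 week and 2.51 and 2.61 at 2 weeks. The same array was farthest from the others for 5 of the 7. Of 9 other collagens 8 were lower at 1 week (88.9%, against 46.4% of all genes), 5 past 2-fold, with a median of −1.02. The 3 chains of collagen VI, Col6a1, Col6a2 and Col6a3, were lower by 1.09, 1.24 and 1.02 at 1 week. Their 2-week differences were 0.22, 0 and −0.16. On the TAA arrays the fibrillar median was 0.19 in each week, against 0.13 and −0.02 over all genes. With normexp background correction the 1-week CCl4 medians were −0.37 for fibrillar and −0.41 for other collagens. Without the 1-week NC array there is no 1-week comparison, and the part of its mesothelial signal in the collagen difference was not tested.

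Stellate cell and myofibroblast genes followed in part. Of 26 measured, 20 were lower at 1 week (76.9%, against 46.4% of all genes) and 15 at 2 weeks (57.7%, against 49.7%). The medians were −0.4 and −0.04. Acta2, the smooth muscle actin of myofibroblasts, went the other way at 1 week, with levels of −0.07 and 1.22, and −0.93 and −0.99 at 2 weeks. Ccn2, a matricellular factor induced by TGF-beta, had levels of 1.82 and 0.3 at 1 week and −0.48 and −0.18 at 2 weeks. Timp1, an inhibitor of matrix proteases, had levels of −0.59 and −2.54 at 1 week and −2.83 and −2.15 at 2 weeks. For Ccn2 and Timp1 the 1-week NC array was again the high one, while for Acta2 it was the 1-week miR-29a array. Proteoglycans of the decorin family had medians of −0.49 and 0.09, elastic fibre and matrix glycoproteins −0.38 and 0.11, and matrix proteases with their inhibitors −0.48 and 0.13. Basement membrane components were lower in both weeks in 12 of 21 (57.1%, against 23.6% of all genes), with medians of −0.27 and −0.16. Of the 7 fibrillar collagens 5 were lower in both weeks (71.4%). Among those 5, Col1a1 and Col1a2 hardly differed at 2 weeks (−0.02, and 0 after rounding). Col4a1 was lower by 0.4 and 0.51. The 30 measured genes of TGF-beta signalling had medians of −0.11 and −0.02. On the TAA arrays the 26 stellate cell and myofibroblast genes had medians of −0.39 and 0.25, against 0.13 and −0.02 over all genes.

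Haemoglobin genes passed 2-fold at 1 week alone, and stress genes were lower at 1 week by small amounts. Haemoglobin Hba-a1 had levels of 6.31 and 7.73 at 1 week and 7.85 and 7.71 at 2 weeks, and Hbb-b1 had 2.74 and 4.29 against 3.94 and 3.94. The 1-week NC array was the low one for both. Of 12 erythroid genes measured 10 were higher at 1 week (83.3%, against 53.6% of all genes). More than 2-fold was reached by 5 (against 1.43%), all of them haemoglobin genes whose near-identical copies the probes may not separate. Summed erythroid signal was 667 and 1440 at 1 week and 1500 and 1380 at 2 weeks. The erythroid median was 0.56 at 1 week, or 0.33 with normexp background correction, and −0.04 at 2 weeks. Heat shock genes were lower in 17 of 19 at 1 week (89.5%, against 46.4% of all genes), with a median of −0.4, and 0.04 at 2 weeks. At 1 week 2 of them passed 2-fold, with Hsph1 lower by 1.06. Genes of the ATF4 and endoplasmic reticulum stress responses were lower at 1 week in 29 of 34 (85.3%, against 46.4% of all genes), none of them past 2-fold. Their medians were −0.35 at 1 week and 0.04 at 2 weeks. The 1-week miR-29a array was farthest from the other 3 for 19 of the 34 (55.9%, against 29.5% of all genes). The metallothioneins Mt1 and Mt2, which bind zinc, were higher: Mt1 levels were 6.27 and 8.23 at 1 week and 7.12 and 7.07 at 2 weeks. Another Mt1 probe gave 3.73 and 0.57, and Mt2 differed by 2.14 and 0.62. On the TAA arrays the brightest Mt1 probe ran the other way at 1 week, by −5.32, and differed by −0.14 at 2 weeks.

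Single genes of 1 week alone included Adamts4, a matrix protease (lower by 1.98), Tgfb3, a TGF-beta ligand (lower by 1.59), Ccl2, a monocyte chemokine (lower by 1.54), and Zbtb16, a transcription factor (lower by 1.96). Onecut1, a hepatocyte transcription factor, was higher by 1.66, with −0.22 at 2 weeks. Fndc8 was not well above background in the 1-week NC array and was at least 9.66-fold higher. Adipocyte markers were higher in 7 of 7 at 1 week (median 0.72, 3 past 2-fold) and 6 of 7 at 2 weeks (median 0.43, 0 past 2-fold). In both weeks 6 of the 7 were higher (85.7%, against 27.5% of all genes). On all 4 arrays 5 of the 7 were well above background. Cidec was higher by 1.5 and 0.85, and the largest difference of any member was 2.42, at 1 week. Of the 401 genes of 1 week alone, the 1-week NC array was farthest from the other 3 for 232 (57.9%) and the 1-week miR-29a array for 169 (42.1%). Over all genes those shares were 23.7% and 29.5%. The limits of this class keep the 2-week arrays close together, so only a 1-week array could be farthest. The counts show only which of the 1-week arrays it was.

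At 2 weeks alone, genes of cholesterol synthesis were higher with miR-29a. SREBP2 drives this pathway when sterols are low. Of 25 measured genes 23 were higher at 2 weeks (92%, against 50.3% of all genes), with a median of 0.84. More than 2-fold was reached by 7 of them, against 1.32% of all genes. At 1 week 17 of the 25 were lower (68%, against 46.4%) and none passed 2-fold, with a median of −0.11. Sqle, the squalene epoxidase, had levels of 4.92 and 4.52 at 1 week and 4.54 and 6.15 at 2 weeks. Its 2-week miR-29a level was above the other 3. Hmgcs1, Mvd and Msmo1, enzymes at early, middle and late steps of the pathway, were higher by 1.06, 1.2 and 1.18 at 2 weeks. The 2-week miR-29a array was farthest from the other 3 for 18 of the 25, against 26% of all genes. With TAA the medians were −0.55 and 0.19. A sterol element (TCACNCCAC) was found upstream of 1 of the 17 of these genes that are in the promoter table (5.88%), against 1.22% of all genes.

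Markers of resident macrophages and endothelium were lower on the same array. All 15 measured Kupffer cell markers were lower at 2 weeks (against 49.7% of all genes), 1 past 2-fold (against 1.36%), with a median of −0.66. All 15 were higher at 1 week (against 53.6%), with a median of 0.19. Cd5l, secreted by these cells, had levels of 4.47 and 4.99 at 1 week and 4.78 and 4.03 at 2 weeks, and Vsig4, a complement receptor, differed by 0.1 and −0.7. The lowest level of both was on the 2-week miR-29a array, which was farthest from the others for 13 of the 15. Summed Kupffer signal was 110 and 131 at 1 week and 107 and 74.5 at 2 weeks. On the TAA arrays the median was −2.17 at 1 week and 0.1 at 2 weeks. Endothelial and sinusoidal markers were lower in 28 of 31 at 2 weeks (90.3%, against 49.7% of all genes, median −0.5). They were higher in 22 of 31 at 1 week (71%, against 53.6%, median 0.11). Stab2, a scavenger receptor of sinusoidal endothelium, was lower by 0.76 at 2 weeks by its brightest probe, but its 2 other probes gave −0.11 to 0.28. Tek, the angiopoietin receptor, was lower by 1.15.

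Immediate early genes answer to stress and growth signals within minutes. They were lower in 12 of 19 at 1 week (63.2%, against 46.4% of all genes) and 16 of 19 at 2 weeks (84.2%, against 49.7%). The medians were −0.39 and −0.41, the first of which was −0.17 with normexp background correction. Egr1 levels were 2.96 and 2.43 at 1 week and 5.2 and 2.75 at 2 weeks, the 2-week NC array being the high one. Fos was not well above background on either miR-29a array and was at least 2.22-fold lower at 2 weeks. Cyp2b10, a drug-metabolizing P450 of the CAR pathway, had levels of 4.43 and 3.95 at 1 week and 4.01 and 1.57 at 2 weeks. Its relative Cyp2b9 was at least 3.41-fold lower at 2 weeks, where it was not well above background with miR-29a. The 2-week miR-29a array was the low one for both. Ptgds, a prostaglandin D2 synthase, had levels of −0.21 and −0.22 at 1 week and 0.3 and −2.97 at 2 weeks. Derl3, of endoplasmic reticulum-associated degradation, was higher by 2.45 at 2 weeks, and by 2.16 and 2.57 on the TAA arrays. Thrsp, a lipogenic gene, was higher by 1.33 at 2 weeks. Macc1 was at least 12-fold higher. Of the 262 genes of 2 weeks alone, the 2-week miR-29a array was farthest from the other 3 for 175 (66.8%) and the 2-week NC array for 87 (33.2%). Over all genes those shares were 26% and 20.8%. The limits of this class keep the 1-week arrays close together, so only a 2-week array could be farthest.

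**Figure D3:**
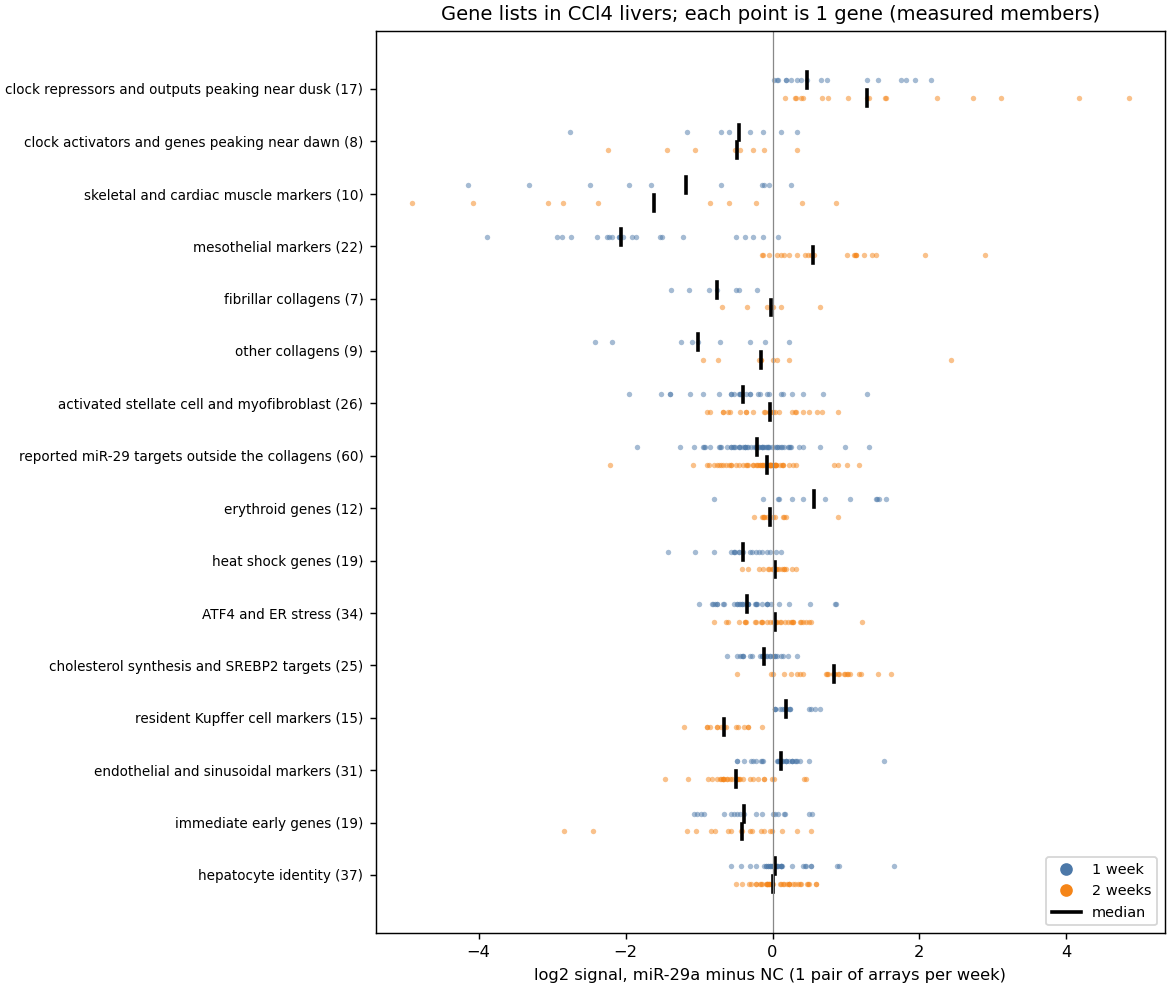
Difference between miR-29a and NC (log2) of each measured member of 16 gene lists, at 1 week (blue) and at 2 weeks (orange), with the list median as a black bar. The dusk clock list is above 0 in both weeks, the muscle list is below 0 in both through members that passed the filter on the NC arrays alone, the mesothelial list is below 0 at 1 week and above it at 2 weeks, the collagen medians go from −0.76 and −1.02 at 1 week to −0.02 and −0.16 at 2 weeks, and the cholesterol list is above 0 at 2 weeks only.

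**Figure D4:**
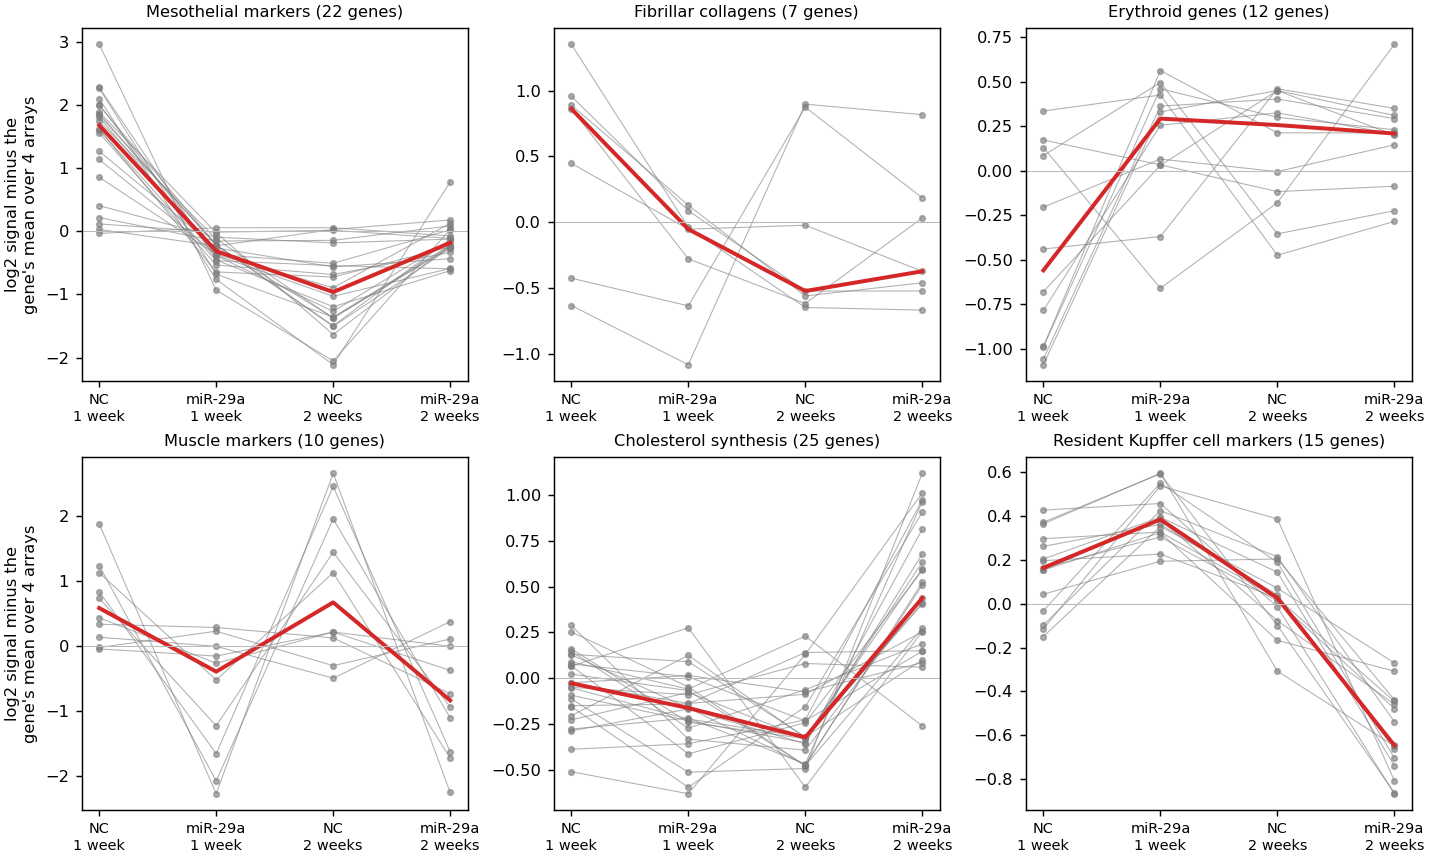
Log2 signal of the measured members of 6 gene lists on each of the 4 CCl4 arrays, less the gene's mean over the 4, with grey lines joining the arrays of 1 gene and a red line for the list median. The 1-week NC array stands high for mesothelial markers and fibrillar collagens, and the 2-week miR-29a array stands high for cholesterol synthesis and low for Kupffer cell markers.

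Genes that opposed between the weeks were led by dim ones. Of the 190, 72 were higher at 1 week and lower at 2 weeks, and 118 the reverse, and 10 of these 190 were mesothelial markers. Chst4, a sulfotransferase on the mesothelial list, was at least 3.64-fold lower at 1 week and at least 2.92-fold higher at 2 weeks. Col8a2, a short-chain collagen, was at least 2.11-fold lower and then at least 3.93-fold higher. In both genes the detected arrays were the 1-week NC and the 2-week miR-29a array.

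Reported targets of miR-29 outside the collagens were lower slightly and often. Of 66 such genes gathered from knowledge of the family 60 were measured, and 44 (73.3%) were lower at 1 week and 41 (68.3%) at 2 weeks, against 46.4% and 49.7% of all genes. The list was also written with earlier results of these data known, so the shares in this paragraph are descriptions and not an independent test. In both weeks 33 (55%) were lower, against 23.6% of all genes, while the medians were small, −0.21 and −0.08. The limma fit gave 15 of the 60 (25%) an unadjusted p under 0.05, of which 13 were lower (21.7%, against 3.24% of all genes), and 0 an adjusted p under 0.05. The 1-week NC array was farthest from the other 3 for 20 of the 60 (33.3%, against 23.7% of all genes), and its part in these counts was not tested. With TAA the medians were 0.13 and 0.01, against 0.13 and −0.02 over all genes.

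Loxl2, a collagen cross-linking oxidase, had levels of 0.57 and −0.37 at 1 week and 0.05 and −0.85 at 2 weeks. Its 2 other probes gave −0.22 to −0.2 and −0.62 to 0.04, smaller than the brightest probe. Pdgfc, a growth factor for stellate cells, had levels of 0.33 and −0.29 at 1 week and 0.56 and −0.31 at 2 weeks, and both NC levels were above both miR-29a levels. Dnmt3b, a DNA methyltransferase, had levels of −0.31 and −1.01 at 1 week and 1.31 and 0.23 at 2 weeks. Its other probes gave 0.09 to 0.24 at 1 week, the opposite sign, and −1.38 to −0.71 at 2 weeks. The collagen chaperone Serpinh1 was lower by 0.92 and 0.4, the basement membrane linker Nid1 by 0.34 and 0.56, and fibrillin Fbn1 by 0.37 and 0.75. The survival gene Bcl2 was lower by 0.51 and 0.59, whereas Mcl1 differed by −0.21 and 0.05 (0.34 and 0.04 by another probe) and Dnmt3a by −0.25 and −0.14. Pik3r1, the regulatory subunit of PI3-kinase, was higher in both weeks, by 0.98 and 0.84.

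Probes whose own sequence holds the letters that pair with the seed (TGGTGCT, in capitals) are shown for 4 genes among the collagens and reported targets. Every probe of a gene was searched. The differences given are those of the gene's brightest kept probe, which need not be the probe that holds the letters. Probes without a mapped position are not shown, so the 4 may not be all. The mm9 positions are chr9:108886864-108886886 on the plus strand for Col7a1, chr4:129776504-129776519 on the plus strand for Col16a1, chr11:85160465-85160487 on the plus strand for Ppm1d and chr13:102454450-102454465 on the minus strand for Pik3r1:
Col7a1: tgataccaTGGTGCTgatgggag
Col16a1: ggttccccTGGTGCTg
Ppm1d: ataacaaaTGGTGCTgctaacac
Pik3r1: aTGGTGCTtgttaacg
Col7a1, the anchoring fibril collagen, differed by −0.31 and −0.74, and Col16a1, a fibril-associated collagen, by −0.72 and 0.06. The phosphatase gene Ppm1d differed by −0.23 and −0.03, and Pik3r1 was higher, as above. Over all 209 genes with such a probe the medians were 0.03 and −0.02, and 53 (25.4%) were lower in both weeks, against 23.6% of all genes. Those letters in a probe cover only the probed stretch of a messenger, and sites elsewhere in it were not searched.

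**Figure D5:**
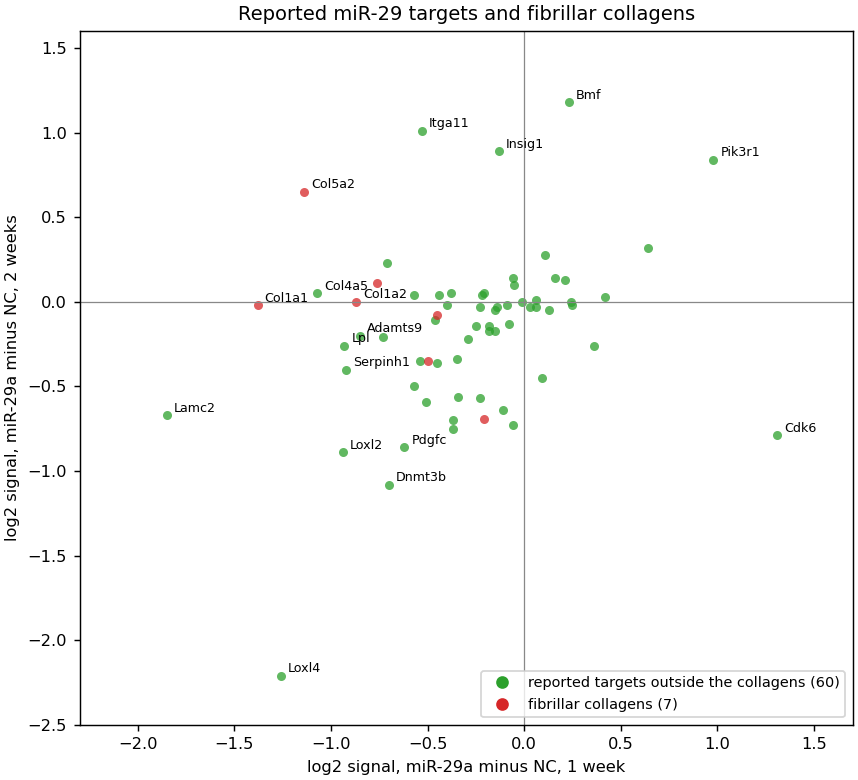
Difference between miR-29a and NC (log2) at 1 week (horizontal axis) and at 2 weeks (vertical axis), 1 point per gene, for the 60 measured reported miR-29 targets in green and the 7 fibrillar collagens in red. At the lower left, below 0 in both weeks, lie 33 of the 60 targets and 5 of the 7 collagens. Among those 5, Col1a1 and Col1a2 lie close to 0 at 2 weeks (−0.02, and 0 after rounding).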

How the data were processed

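Gene expression was measured in mouse liver on one-colour Agilent arrays (Cy3, 62976 spots), 1 array per agent, week and oligonucleotide. The members of the comparison and the gene lists were chosen with earlier results of these data known. Per the file headers, the deposited intensity of each spot is Agilent Feature Extraction's background-subtracted processed signal (version 10.10.1.1, per the file headers), with mean and background intensity and deposited 0 or 1 flags (other values) for spots well above background, saturated or outlying. The deposited log2 table holds the authors' processed values; on each array it differed from log2 processed signal minus the 75th percentile by a constant, within 0.01 for 100% of probes. Its column medians were −4.04, −4.07, −3.87 and −3.81 for the CCl4 arrays, NC before miR-29a and 1 week before 2 weeks.

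Here, log2 of the processed signal minus each array's 75th percentile was used. Control spots were left out, as were 24 probes with outlier spots only, and spots of 1 probe were averaged over 55681 probes. Probes that stood well above background on 2 or more of the 4 CCl4 arrays were kept (25701), and the brightest per gene name was taken. Names came from RefSeq by accession for 27656 probes, by symbol for 3401 and by older symbol for 321, and 24303 kept the array's name. Within a week there is 1 array against 1, so 2-fold is a size and not a test, and an exact permutation over the 2 pairs cannot go below 0.5. The tests were limma 3.58.1 in R 4.3.3, with week as a block over 4 arrays, and over all 8 arrays for CCl4 against TAA, with Benjamini-Hochberg adjustment. The code was tested on simulated data. Gene lists numbered 45, each described by counts and a median beside all genes.

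The rule for named genes took the genes with the largest smaller difference of those agreeing in both weeks, the largest of each week alone and of the opposed genes, the leading members of lists whose median passed 0.25 in either direction, and a fixed set of matrix, target and clock genes. Outside that rule, and chosen after their values were seen, are Aacs, Abtb2, Asap2, Bcl2, Bhlhe40, C3, Ccl2, Cd5l, Col16a1, Col6a3, Col7a1, Cry2, Cyp26b1, Cyp2b10, Cyp7b1, Cyp8b1, Dhrs9, Gpc3, Hmgcs1, Loxl2, Loxl4, Mt2, Myh6, Nid1, Nr0b2, Nr1d1, Nr1d2, Pdk4, Per1, Pik3r1, Ppm1d, Ppp1r3g, Pvalb, Rarres2, Serpinh1, Slc51b, Stab2, Tgfb3, Thrsp, Tnnt1, Vsig4, Wt1 and Zbtb16. Probe positions are those of the files (mm9), and the genome annotation of that build was not used here, so exons and untranslated regions are not given. Eln, elastin, did not pass the background filter. Some results are not reported here.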

Additional observations from a re-analysis of the deposited data

Results flagged for a closer look

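Results that ran in opposite directions in the 2 weeks are given here. In each case there is 1 pair of arrays per week, so the difference between the weeks was not tested. Higher with miR-29a at 1 week and lower at 2 weeks were Fmr1nb (2.98, then −3.08 log2), Cacng2 (4.07, then −1.45), Ifna7 (2.78, then −2.24), Scgb1c1 (2.72, then −2.20) and Tex13c1 (2.69, then −2.12). Lower at 1 week and higher at 2 weeks were Hsf3 (−4.84, then 3.55), Lypd5 (−4.44, then 3.88), Gpr55 (−2.70, then 4.04), the long non-coding RNA Gm3428 (−2.72, then 3.57) and Dmkn (−3.89, then 2.08). Each of the 10 was dim, with 1 or more of the 4 arrays not well above background. As lower bounds, Hsf3 was at least 6.05-fold lower and then at least 4.38-fold higher, Lypd5 at least 5.08-fold and 5.99-fold, Gpr55 at least 1.45-fold and 6.38-fold, and Gm3428 at least 1.59-fold and 5.21-fold. Dmkn was at least 4.22-fold higher at 2 weeks. Fmr1nb was at least 4.04-fold higher and then at least 5.66-fold lower, Ifna7 at least 2.00-fold and 2.7-fold, and Cacng2 at least 5.25-fold higher at 1 week. For Scgb1c1 (at least 1.45-fold and 1.07-fold) and Tex13c1 (at least 1.48-fold and 1.04-fold) the bounds stayed under 1.5-fold in both weeks, so their reversal past the limits is not measured, and for Gpr55 the same holds at 1 week. The mesothelial markers had a list median of −2.06 at 1 week and 0.55 at 2 weeks. Pancreatic acinar markers, of which 7 of 20 were measured, had a median of 0.45 at 1 week and −0.28 at 2 weeks.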

How the results depend on the processing

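No count, gene or list median past 2-fold changed sign under an alternative that was run, but values near 0 did: without a filter on dim probes the 2-week median went from −0.16 to 0.2 for other collagens and from −0.04 to 0.03 for erythroid genes, with median scaling it went from 0.04 to −0.02 for heat shock and for ATF4 and ER stress genes, and Mt1 at 2 weeks went from −0.04 to 0.26 as the mean of its probes. The median in place of the 75th percentile and the authors' deposited matrix moved none of the results past the limits used. Quantile normalization moved the mesothelial median at 1 week to −1.88. With normexp the genes past 2-fold were 49 higher and 88 lower at 1 week, 61 and 44 at 2 weeks, and 7 and 6 in both. Its list medians were 0.78 for the dusk clock at 2 weeks, −0.18 and −0.3 for muscle, −1.22 and 0.32 for mesothelium, −0.37 for fibrillar and −0.41 for other collagens at 1 week, 0.33 for erythroid genes and −0.17 for immediate early genes at 1 week. Its limma fit called 4 genes. Probes on all 4 arrays gave 105 and 180, 119 and 86, and 9 and 8 genes. The medians were then 1.03 for the dusk clock at 2 weeks, −0.14 and −0.22 for muscle, −0.72 for other collagens and −0.23 for immediate early genes at 1 week. No filter gave 1224 and 1436, 1705 and 1213, and 156 and 134 genes, with medians of −0.12 and −0.35 for muscle, −0.45 for fibrillar collagens at 1 week, −0.35 and 0.2 for other collagens, 0.1 for erythroid and −0.06 for immediate early genes at 1 week. A 1.5-fold limit gave 809 and 1169, 740 and 861, and 121 and 163 genes, and a 3-fold limit 85 and 166, 91 and 93, and 10 and 25. Raising dim signals to the lowest detected one, an alternative chosen after seeing the data, left 172 genes higher at 1 week, 163 lower at 2 weeks, and 18 and 22 in both. It gave −0.53 and −0.78 for muscle and −0.78 for other collagens at 1 week. All 40 of those genes in both weeks were among the 72, as were all 13 under normexp. Fewer probes pass the stricter filter by its construction, and for the other settings the cause was not tested.

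Limma called 0 genes in the fit without the week block, in the 8-array fit and when each CCl4 array was left out in turn without that block (0 to 0). The week block pairs the NC and miR-29a arrays of a week. Dim probes limit the comparison, since their folds are lower bounds.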
